A study of Mus musculus with 8 samples.

Results

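Urea cycle and amino acid catabolism genes were followed in livers of mice in which Sco1 was targeted in hepatocytes and in control livers. The genes were taken from a list of 43 symbols, and a gene was kept where the array annotation gave a probe set that single symbol. This left 41 of the 22180 genes tested, each read by the probe set with the highest mean over the arrays. The serine dehydratase genes Sds and Sdsl had no such probe set and were not analysed here. By route, 8 of the 41 belong to the urea cycle and its carriers, 5 to the transaminases and glutamate dehydrogenase, 4 to aromatic amino acids, 4 to histidine, 3 to proline, 6 to branched-chain amino acids, 4 to glycine and glyoxylate, 6 to methionine and 1 to lysine.

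Liver RNA was measured in 4 knockout and 4 wild-type mice with 1 Affymetrix whole-transcript array each, all of the C57BL/6N strain and 27 days old. Knockout mice carried 1 albumin-driven Cre transgene and 2 floxed alleles of Sco1, whose product delivers copper to cytochrome c oxidase. The titles call all wild-type mice floxed without Cre. Their genotype labels instead give wild-type mice 1 and 3 the Cre transgene with 1 floxed and 1 wild-type allele, and wild-type mice 2 and 4 no Cre with 2 floxed alleles, so that every control carried at least 1 floxed allele. The albumin promoter drives Cre in hepatocytes. How complete the deletion was in hepatocytes or in other liver cells is not given in the labels. Sex, litter and collection time are not given in the labels.

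The liver breaks down most dietary and body amino acids. Transaminases and glutamate dehydrogenase move their nitrogen into glutamate, aspartate and ammonia, and the urea cycle turns ammonia, bicarbonate and aspartate into urea. Its opening steps lie in the mitochondrial matrix, while arginine is made and split in the cytosol. Many steps that oxidise proline, glycine, lysine and branched-chain carbon skeletons also lie in mitochondria and feed electrons to the respiratory chain. Hepatocytes around the portal vein carry most of the urea cycle, and those around the central vein make glutamine.

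Values are log2 units after robust multi-array averaging (RMA), so that a difference of 1 is a doubling, and levels of different genes cannot be compared because each probe set has its own response. Array medians lay between 5.79 and 5.89. Correlations between arrays of a group were 0.9915 to 0.9946 for knockout livers and 0.9939 to 0.9954 for wild-type livers. Sco1 stood at 7.48, 7.62, 7.72 and 7.56 in knockout mice 1 to 4, against 7.84, 7.93, 8.19 and 8.04 in wild-type mice 1 to 4. Its groups did not overlap, and its difference was -0.41 ± 0.09 (SE, n = 4 each), which in limma gave an adjusted p of 0.0633 after Benjamini-Hochberg correction over all genes. Which exons its probe set covers is not given in the sources used here. All 5 hepatocyte markers, of which Tat is also in the catabolic list, gave a mean of 13.44 to 13.47 in knockout and 13.41 to 13.46 in wild-type livers. Each averaged between 13.15 and 13.85, the highest mean of all genes, where a rise has little room to show. None of 47 measured markers of 10 cell types passed the threshold. The mean of 6 lymphocyte markers was 6.38 to 6.71 in knockout and 6.21 to 6.38 in wild-type livers, that of 3 muscle markers 6.24 to 6.62 and 5.97 to 6.19, and that of 8 Kupffer cell and macrophage markers 9.62 to 10.19 and 9.55 to 10.11. Stellate markers, 6 in number, averaged 8.33 to 8.47 in knockout and 8.46 to 8.63 in wild-type livers, with 5 of 6 differences negative. Endothelial markers, 5 in number, averaged 10.04 to 10.16 and 9.87 to 10.05, with 5 of 5 differences positive. The part of other cells in the results was not tested, and in whole liver fewer cells of a type cannot be told apart from less RNA per cell. Y-linked genes averaged 7.36 in knockout mouse 4, against 8.60 to 8.72 in the other knockout mice and 8.60 to 8.86 in wild-type mice. Xist read 4.70, 4.76, 4.77 and 5.01 in knockout mice 1 to 4 and 4.59 to 5.06 in wild-type mice. What lowered the Y-linked level was not tested.

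None of the 41 listed genes of the urea cycle and amino acid catabolism passed the threshold of 0.05 in knockout against wild-type livers. Of the 41 genes 0 were called higher, where 0.433% of all genes were, and 0 were called lower, where 0.717% were, by limma with Benjamini-Hochberg adjustment. In either direction 1.15% of all genes were called, or 255 of 22180. Without adjustment, 6 of the 41 had a p under 0.05 (Got1, Asl, Prodh and Aass higher, Agxt and Slc25a13 lower), or 14.6%, against 16.7% of all genes. The groups did not overlap for 5 of the 41 genes, or 12.2%, against 10.7% of all genes. They were higher in knockout livers for Got1, Asl and Aass (3 genes, with 5.26% of all genes) and lower for Slc25a13 and Ivd (2 genes, with 5.49%). Among genes above the median level, as all 41 were, 19.8% had an unadjusted p under 0.05. The groups of 13.9% of those genes did not overlap, 493 higher and 1054 lower. The shares of the 41 genes, 14.6% and 12.2%, lay near those of all genes and below those of the brighter genes. The median difference was -0.01 over the 41 genes, with 18 positive and 23 negative, and 0.03 over all genes. Among genes above the median level, which include all 41, it was -0.02, with 4936 positive and 6154 negative. The median size of a difference, whatever its sign, was 0.08 for the 41 genes and 0.11 for all genes.

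The arrays limited the differences to small sizes for most of these genes. A 95% interval of the difference reached 0.15 to either side for Cps1, the narrowest, and 0.67 for Ass1, the widest, with a median of 0.19. For 37 of the 41 genes the interval lay inside 0.5 log2 units, or 1.41-fold, in both directions. The exceptions were Ass1, Got1, Prodh and Amt, and no interval reached 2-fold. These intervals are not adjusted for the number of genes. For Ass1, Gcsh and Bhmt, the 3 genes that averaged under 8, a dim probe set may show little of a change. RMA draws large differences toward 0, and 7 of the genes (Cps1, Glud1, Got2, Tat, Hpd, Hgd and Mat1a) averaged within 1 unit of the highest mean of all genes, 13.85, where a rise has little room to show.

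**Figure D1:**
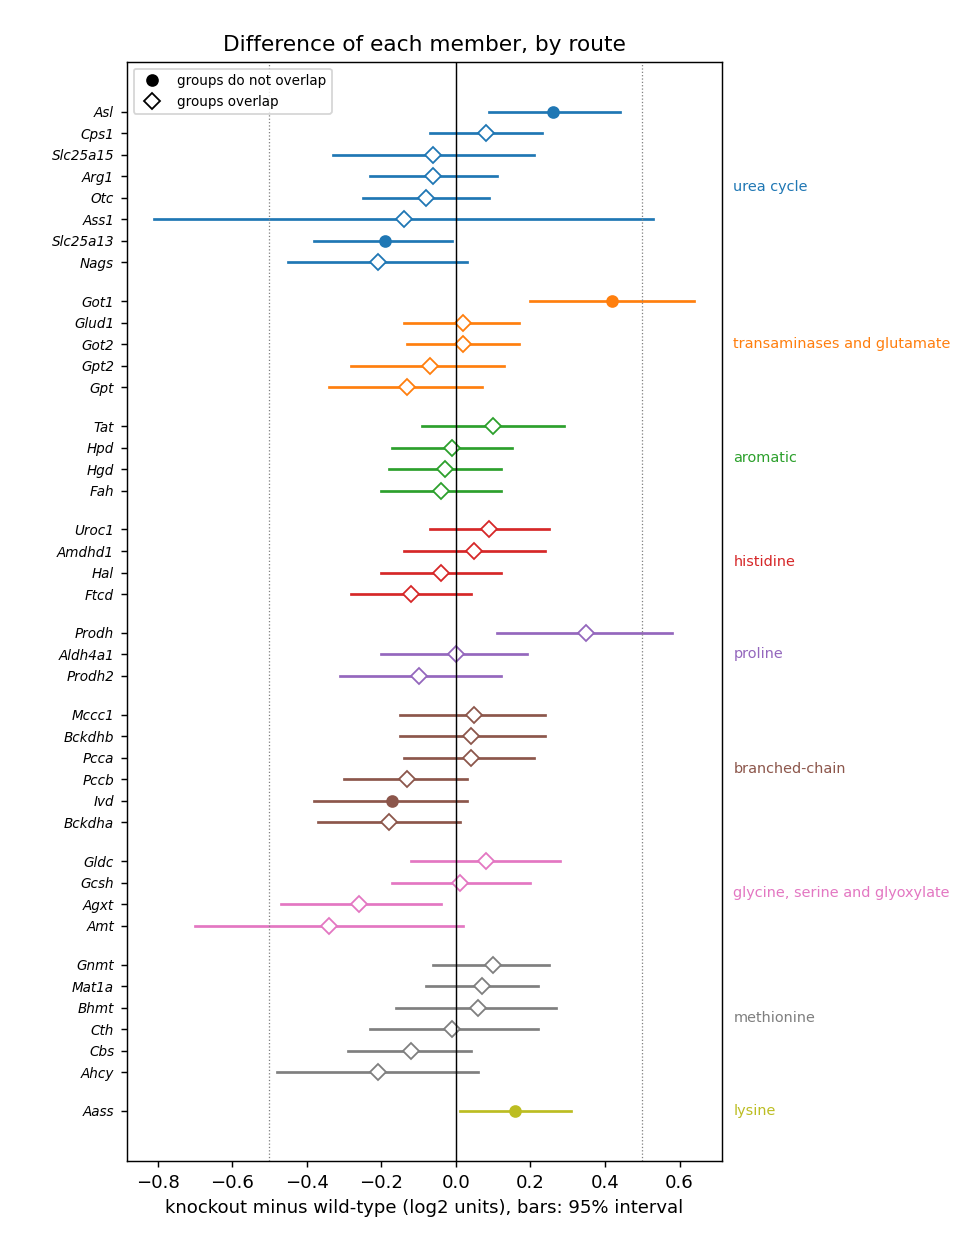
Difference of each of the 41 genes, knockout minus wild-type in log2 units, with its 95% interval, grouped by route; filled circles mark genes whose groups did not overlap, open diamonds the others, and dotted lines mark 0.5 either way. Got1 lies farthest to the right at 0.42 and Amt farthest to the left at -0.34, and the intervals of 37 genes stay between the dotted lines.

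In the urea cycle, the mitochondrial entry enzymes were close between the groups. Cps1, which makes carbamoyl phosphate from ammonia, stood at 13.54, 13.61, 13.64 and 13.62 in knockout mice 1 to 4 and at 13.48, 13.55, 13.54 and 13.52 in wild-type mice 1 to 4. Otc, which joins carbamoyl phosphate to ornithine, stood at 12.49 to 12.66 in knockout and 12.55 to 12.74 in wild-type livers. The differences were 0.08 ± 0.07 for Cps1 and -0.08 ± 0.08 for Otc (SE, n = 4 each), with adjusted p of 0.582 and 0.622. Nags, whose product N-acetylglutamate activates CPS1, differed by -0.21 ± 0.11, at 9.89 to 10.25 in knockout and 10.02 to 10.39 in wild-type livers (adjusted p = 0.358). A dimmer probe set of Nags differed by -0.07.

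Argininosuccinate lyase, Asl, which releases arginine and fumarate, had the smallest p of the urea route. It stood at 11.73, 11.99, 11.95 and 11.80 in knockout mice 1 to 4, against 11.56, 11.67, 11.59 and 11.59 in wild-type mice 1 to 4. Every knockout liver lay above every wild-type liver, by a mean of 0.26 ± 0.08, which put the knockout at 120% of the wild-type level but missed the threshold (SE, n = 4 each; adjusted p = 0.147). The aspartate-glutamate carrier Slc25a13, which brings aspartate to the cytosol for the cycle, lay the other way. It stood at 11.29, 11.27, 11.00 and 11.23 in knockout mice 1 to 4, against 11.43, 11.34, 11.45 and 11.33 in wild-type mice 1 to 4. Its groups did not overlap either, at a difference of -0.19 ± 0.08 (adjusted p = 0.286).

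Arginase, Arg1, which yields urea, differed by -0.06 ± 0.08, and the ornithine carrier Slc25a15 by -0.06 ± 0.12 (SE, n = 4 each). Argininosuccinate synthetase, Ass1, was the least precise of all 41 genes. Its probe set read 7.36, 7.98, 7.46 and 6.70 in knockout mice 1 to 4 and 7.29, 7.24, 7.11 and 8.42 in wild-type mice 1 to 4. The highest and the lowest readings were both from mice numbered 4, in opposite groups, and the difference of -0.14 ± 0.30 had an interval of -0.81 to 0.53. Leaving out the knockout mouse numbered 4 gave an Ass1 difference of 0.09, and leaving out the wild-type one gave 0.17, so that its sign rested on single arrays. Over the 8 genes of the route 2 differences were positive and 6 negative, with a median of -0.07.

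Among the enzymes that move amino groups, the cytosolic aspartate aminotransferase Got1 had the largest difference and the smallest p of all 41 genes. It stood at 12.25, 12.31, 12.36 and 12.04 in knockout mice 1 to 4, against 11.60, 11.94, 11.92 and 11.83 in wild-type mice 1 to 4. All knockout livers lay above all wild-type livers, and the mean difference of 0.42 ± 0.10 put the knockout at 134% of the wild-type level (SE, n = 4 each; limma adjusted p = 0.0755). The adjusted p lay under 0.05 with 2 of 20 alternative settings, at 0.0337 with a trended and robust variance and at 0.0433 among genes above the median level. Wild-type mouse 1 was the lowest of its group, and without it the difference was 0.34 (adjusted p = 0.131).

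Its mitochondrial counterpart Got2, which works with it in the malate-aspartate shuttle, stood at 13.20 to 13.35 in knockout and 13.22 to 13.25 in wild-type livers, a difference of 0.02 ± 0.07. A dimmer probe set of Got2 differed by 0.17. Glutamate dehydrogenase, Glud1, which frees ammonia from glutamate in the matrix, also differed by 0.02 ± 0.07. The alanine aminotransferases, which pass nitrogen from alanine to glutamate, lay at -0.13 ± 0.09 for the cytosolic Gpt and at -0.07 ± 0.09 for the mitochondrial Gpt2 (SE, n = 4 each). Their adjusted p were 0.905 for Got2, 0.921 for Glud1, 0.508 for Gpt and 0.727 for Gpt2.

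The bases before the start site are given for Got1, as the catabolic gene with the largest difference, and for Ppm1k, the gene of these pathways outside the list that passed the threshold and is described further on. Both are 250 bases long, 5′ to 3′ on the gene's own strand, from RefSeq on GRCm38.p6: the Got1 stretch is the minus strand of chr19:43524606-43524855 and the Ppm1k stretch the minus strand of chr6:57535488-57535737. Capitals mark matches on either strand to any of 4 motifs. These are the TATA box, spelled TATAAA, and the CCAAT box, named by its letters. The core of the cyclic AMP response element was searched as TGACG. The element bound by C/EBP and ATF factors was searched as TGATGNAAN.
Got1: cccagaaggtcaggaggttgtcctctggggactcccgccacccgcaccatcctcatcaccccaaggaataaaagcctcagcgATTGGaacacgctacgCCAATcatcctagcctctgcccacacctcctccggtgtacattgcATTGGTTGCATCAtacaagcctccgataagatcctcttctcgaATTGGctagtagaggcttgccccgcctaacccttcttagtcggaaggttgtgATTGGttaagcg
Ppm1k: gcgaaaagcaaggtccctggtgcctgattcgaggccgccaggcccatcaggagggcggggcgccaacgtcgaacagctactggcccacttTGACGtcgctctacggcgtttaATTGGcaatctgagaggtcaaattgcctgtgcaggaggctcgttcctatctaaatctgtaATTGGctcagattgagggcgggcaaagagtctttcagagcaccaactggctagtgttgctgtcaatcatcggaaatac
The Got1 stretch held 5 CCAAT boxes and 1 C/EBP-ATF element, which shares a base with a CCAAT box, and the Ppm1k stretch held 2 CCAAT boxes and 1 cyclic AMP element core. Of the 35 catabolic genes with an entry, 57.1% held CCAAT, against 37.5% of 27025 genes. TGATGNAAN was found in 1 of the 35, Got1 itself, or 2.86%, against 3.89% of all genes. TGACG was found in 11.4% of the 35 and 19.8% of all genes, and TATAAA in 11.4% and 14.3%. These letters describe the windows and do not show that a factor binds there.

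**Figure D2:**
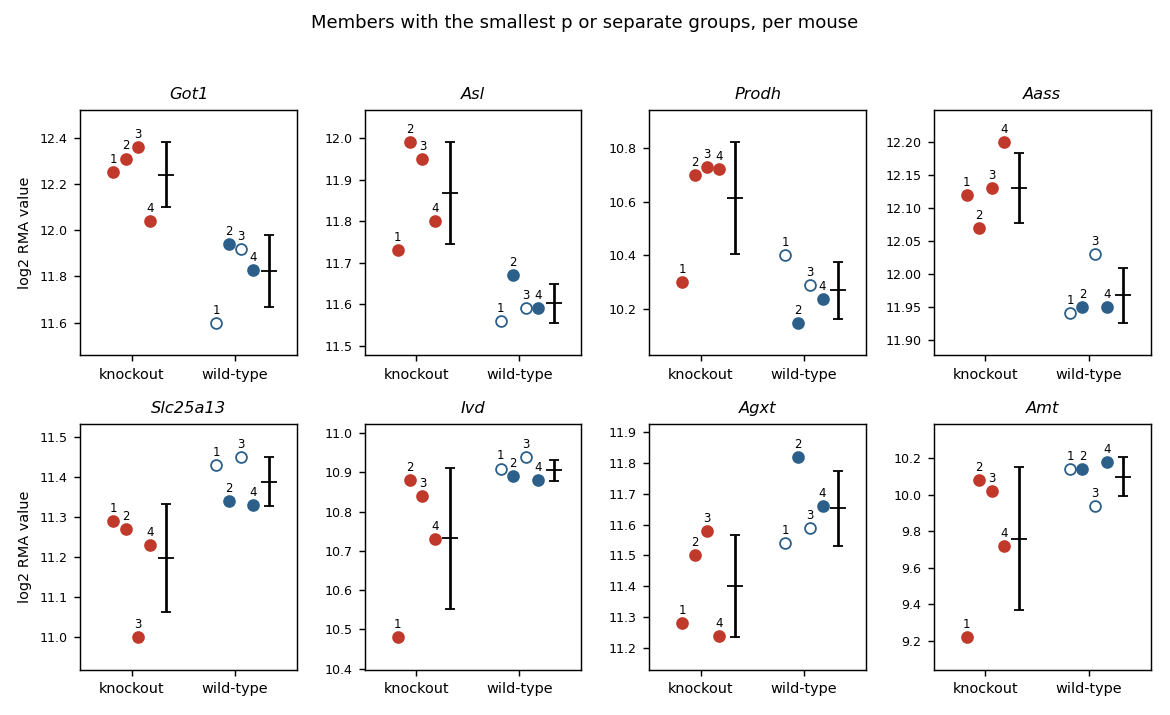
Log2 RMA value of each mouse, numbered, for 8 of the genes: red for knockout, blue for wild-type, open blue circles for wild-type mice with Cre and 1 floxed allele; black bars give the group mean and SD. The groups of Got1, Asl, Aass, Slc25a13 and Ivd do not overlap, and knockout mouse 1 lies apart from the other knockout mice for Prodh, Ivd and Amt.

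The aromatic route, which takes tyrosine to fumarate and acetoacetate, had the narrowest range of differences among the routes with several genes, from -0.04 to 0.10. Tat, Hpd and Hgd of this route are among the 7 genes near the highest mean of all genes, where a rise has little room to show. Tyrosine aminotransferase, Tat, which starts the route and answers to glucocorticoids and glucagon, stood at 13.32, 13.33, 13.31 and 13.36 in knockout mice 1 to 4. In wild-type mice 1 to 4 it stood at 13.00, 13.26, 13.27 and 13.37. The groups overlapped, wild-type mouse 1 being the lowest of all, and the difference was 0.10 ± 0.09 (SE, n = 4 each; adjusted p = 0.576). Without that mouse the Tat difference was 0.03. The later enzymes of the route lay closer still. The dioxygenase genes Hpd and Hgd differed by -0.01 ± 0.07 and -0.03 ± 0.07, and Fah, whose product splits fumarylacetoacetate, differed by -0.04 ± 0.07.

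Histidine is broken down to glutamate with transfer of a one-carbon unit to folate. Hal, the ammonia lyase that starts the route, differed by -0.04 ± 0.07, the urocanase gene Uroc1 by 0.09 ± 0.07 and the imidazolonepropionase gene Amdhd1 by 0.05 ± 0.09 (SE, n = 4 each). The folate-transferring last enzyme, Ftcd, had the smallest p of the route. It stood at 11.18, 11.35, 11.24 and 11.34 in knockout mice 1 to 4 and at 11.43, 11.40, 11.32 and 11.44 in wild-type mice 1 to 4, with overlapping groups and a difference of -0.12 ± 0.07 (adjusted p = 0.44).

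Proline dehydrogenase, Prodh, is an inner-membrane flavoenzyme that hands the electrons of proline to the respiratory chain. Its level was 10.30, 10.70, 10.73 and 10.72 in knockout mice 1 to 4, against 10.40, 10.15, 10.29 and 10.24 in wild-type mice 1 to 4. Knockout mice 2, 3 and 4 lay above all wild-type mice, while knockout mouse 1 lay among them. The difference was 0.35 ± 0.11, or 127% of the wild-type level, and did not pass (SE, n = 4 each; adjusted p = 0.151). Without knockout mouse 1 it was 0.45 (adjusted p = 0.0531). Prodh2, which oxidises hydroxyproline, differed by -0.10 ± 0.10, and Aldh4a1, whose product makes glutamate at the end of proline breakdown, averaged 11.05 in both groups (SD 0.15 in knockout and 0.07 in wild-type livers).

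Branched-chain amino acids are oxidised by the branched-chain ketoacid dehydrogenase, whose E1 subunits are Bckdha and Bckdhb. Bckdha stood at 10.28, 10.26, 10.32 and 10.39 in knockout mice 1 to 4 and at 10.69, 10.45, 10.50 and 10.32 in wild-type mice 1 to 4. Only wild-type mouse 4 overlapped the knockout range, and the difference was -0.18 ± 0.09 (SE, n = 4 each; adjusted p = 0.333). Without wild-type mouse 1 the Bckdha difference was -0.11. Bckdhb differed by 0.04 ± 0.09. The leucine enzyme isovaleryl-CoA dehydrogenase, Ivd, which passes electrons to the electron transfer flavoprotein, stood at 10.48, 10.88, 10.84 and 10.73 in knockout mice 1 to 4. In wild-type mice 1 to 4 it stood at 10.91, 10.89, 10.94 and 10.88. Its groups were separated only by the gap between 10.876 and 10.880, and the difference of -0.17 ± 0.09 (adjusted p = 0.372) was -0.09 without knockout mouse 1. The carboxylase subunits Mccc1, Pcca and Pccb differed by 0.05 ± 0.09, 0.04 ± 0.08 and -0.13 ± 0.08.

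Glycine is split by the cleavage system of the mitochondrial matrix, whose decarboxylase is Gldc, aminomethyltransferase Amt and hydrogen carrier Gcsh. Amt had the lowest difference of all 41 genes. It stood at 9.22, 10.08, 10.02 and 9.72 in knockout mice 1 to 4, against 10.14, 10.14, 9.94 and 10.18 in wild-type mice 1 to 4. The groups overlapped, and knockout mouse 1 was far the lowest. The difference of -0.34 ± 0.16 (SE, n = 4 each; adjusted p = 0.324) was -0.16 without that mouse. Gldc differed by 0.08 ± 0.09 and Gcsh by 0.01 ± 0.08.

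Agxt, the aminotransferase that clears glyoxylate by making glycine, had the smallest p of this route. Its level was 11.28, 11.50, 11.58 and 11.24 in knockout mice 1 to 4, against 11.54, 11.82, 11.59 and 11.66 in wild-type mice 1 to 4. Knockout mouse 3 overlapped wild-type mouse 1, and the difference of -0.26 ± 0.10 put the knockout at 83.8% of the wild-type level (SE, n = 4 each; adjusted p = 0.233).

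Methionine is activated by Mat1a, demethylated through Gnmt, and its homocysteine is either remethylated by Bhmt or passed on to cysteine by Cbs and Cth. Mat1a differed by 0.07 ± 0.07, Gnmt by 0.10 ± 0.07, Bhmt by 0.06 ± 0.10, Cbs by -0.12 ± 0.07 and Cth by -0.01 ± 0.10 (SE, n = 4 each). Ahcy, which splits S-adenosylhomocysteine, had the smallest p of the route. It stood at 10.68, 11.16, 10.76 and 11.12 in knockout mice 1 to 4 and at 11.11, 11.01, 11.35 and 11.08 in wild-type mice 1 to 4. The groups overlapped and the difference was -0.21 ± 0.12 (adjusted p = 0.424), with -0.31 in a dimmer probe set. Without knockout mouse 1 the Ahcy difference was -0.12.

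The lysine enzyme Aass, a bifunctional protein that starts the saccharopine route in mitochondria, stood at 12.12, 12.07, 12.13 and 12.20 in knockout mice 1 to 4. In wild-type mice 1 to 4 it stood at 11.94, 11.95, 12.03 and 11.95. Every knockout liver lay above every wild-type liver, at a difference of 0.16 ± 0.07 or 112% of the wild-type level (SE, n = 4 each; adjusted p = 0.275). Its interval ran from 0.01 to 0.31.

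Knockout mouse 1 differed from the other knockout mice across the list. It held the lowest value of its group for 24 of the 41 genes, against 3, 2 and 12 genes for knockout mice 2, 3 and 4. Over all genes knockout mouse 1 was the lowest of its group for 27.3%, and among genes above the median level, which include all 41, for 31.4%. Its median deviation from the group mean was -0.10 over the 41 genes and 0.00 over all genes. Wild-type mouse 1 was the lowest of its group for 12 of the 41 genes, fewer than wild-type mouse 4 with 15. Over all genes wild-type mouse 1 was the lowest for 26.4%, and among those above the median level for 29.8%. Its median deviation over the 41 genes was 0.00. In the clock genes, both mice numbered 1 stood apart: Dbp read 9.66 in knockout mouse 1 against 6.87 to 7.33 in the other knockout mice, and 9.86 in wild-type mouse 1 against 7.08 to 7.33 in the other wild-type mice. Whether collection time had a part in the member levels was not tested. Cth, the last enzyme on the way to cysteine, was lowest in the mice numbered 1 of both groups. It read 12.00 in knockout mouse 1 against 12.26 to 12.37 in knockout mice 2 to 4, and 12.07 in wild-type mouse 1 against 12.28 to 12.34 in wild-type mice 2 to 4. The mice numbered 1 were the lowest of both groups for 7 of the 41 genes, or 17.1%, against 9.59% of all genes. They were the highest of both groups for 3, or 7.32%, against 9.76%. Because knockout mouse 1 alone was the lowest for 24 of the 41, the 17.1% does not show a pattern shared by the 2 mice.

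**Figure D3:**
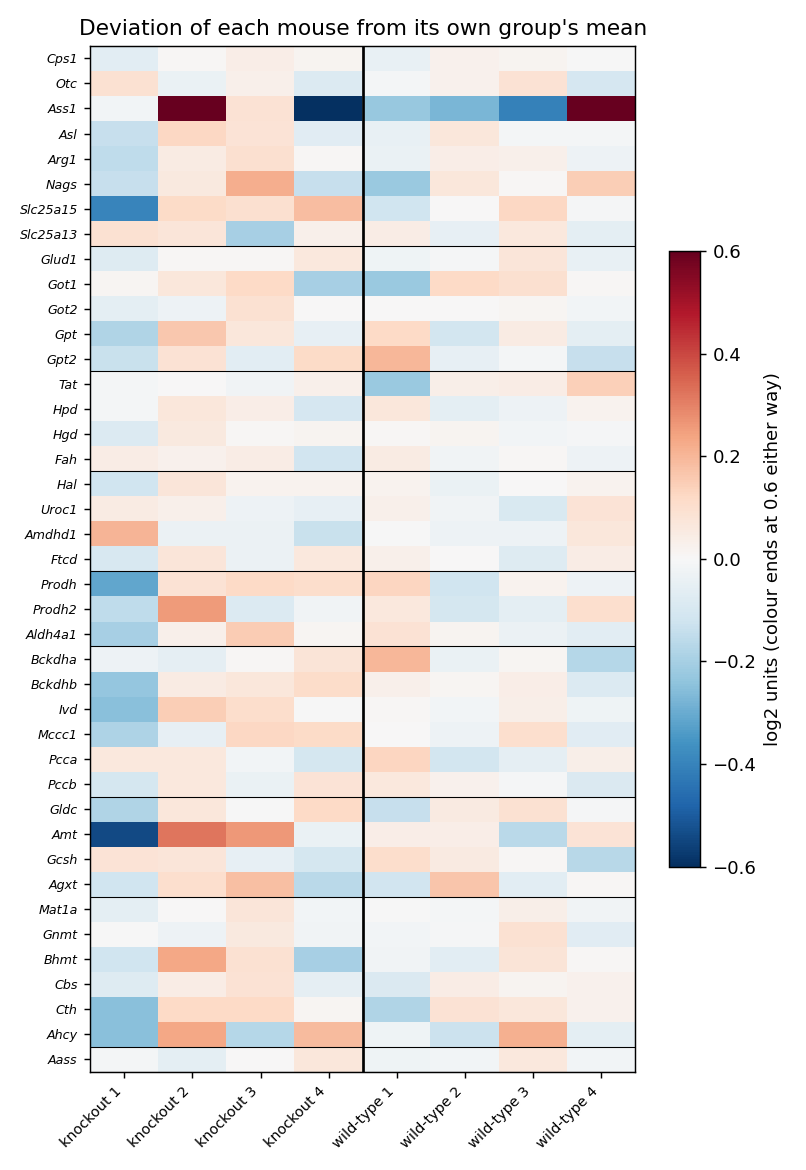
Deviation of each mouse from the mean of its own group, in log2 units, for the 41 genes in the order of their routes (knockout mice left, wild-type mice right; blue is below and red above the group mean). The column of knockout mouse 1 is mostly blue, with the lowest value of the group for 24 of 41 genes, and Ass1 varies most between mice.

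The wild-type mice were also split into the 2 classes of control that the genotype labels give, and both comparisons share the knockout arrays. In a fit with 3 groups, none of the 41 genes passed against controls with Cre and 1 floxed allele, where 0.131% of all genes were called, and none against controls without Cre, where 0.212% were. Unadjusted p lay under 0.05 for 4 of the 41 genes against the controls with Cre, where 11.8% of all genes did, and for 5 of the 41 against those without, where 11.5% did. Got1 differed by 0.48 from the controls with Cre and by 0.35 from those without, Asl by 0.29 and 0.24, and Prodh by 0.27 and 0.42. Between the control classes no catabolic gene passed and none had an unadjusted p under 0.05, where 3.03% of all genes did. Sco1 itself averaged 8.01 in the controls with Cre and 7.99 in those without, a difference of 0.03 ± 0.14 (SE, n = 2 each). The controls with Cre include wild-type mouse 1, which stood apart in the clock genes.

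Other genes of the same pathways were read from a list of 68 symbols, of which 59 were measured. Of these 1 fell, none rose and 58 did not pass. The called share was 1.69%, against 1.15% of all genes and 1.72% of those above the median level, so that it lay near the background. The list had a median of -0.06 and 18 positive against 41 negative differences. Genes above the median level had a median of -0.02, with 4936 positive and 6154 negative. Without adjustment, 11 had a p under 0.05 (2 higher and 9 lower), or 18.6%, against 16.7% of all genes and 19.8% of those above the median level. The groups of 11 genes did not overlap, or 18.6%, against 10.7% of all genes and 13.9% of those above the median level.

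The gene that fell was Ppm1k, the mitochondrial phosphatase that activates the branched-chain ketoacid dehydrogenase by removing the phosphate from its E1 subunit. Ppm1k stood at 10.56, 10.62, 10.59 and 10.58 in knockout mice 1 to 4, against 11.20, 11.09, 10.93 and 11.04 in wild-type mice 1 to 4. The knockout livers lay within a narrow band, well below all wild-type livers. Its difference of -0.47 ± 0.08 put the knockout at 72.1% of the wild-type level (SE, n = 4 each; limma, adjusted p = 0.0203). The difference was the same, -0.47, against controls with and without Cre. With each of the 8 arrays left out in turn it kept its sign, and its adjusted p ran from 0.0289 to 0.0647, passing 4 times. It missed the threshold when knockout mouse 1 or 3, or wild-type mouse 2 or 4, was left out. The opposing kinase Bckdk differed by -0.14 ± 0.10, and Dbt, the core subunit of the same complex, by 0.03 ± 0.08. In the valine part of the route Acad8 and Hibch lay at -0.22 ± 0.08 and -0.20 ± 0.08, with groups that did not overlap and adjusted p of 0.194 and 0.236, while Hibadh and Aldh6a1 lay at 0.08 ± 0.07 and -0.06 ± 0.07. Hibch differed by -0.30 from the controls with Cre and by -0.10 from those without. Of the 17 further branched-chain genes measured, Ppm1k included, 4 differences were positive and 13 negative.

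Slc7a2, a plasma-membrane carrier of arginine, ornithine and lysine, had the next smallest p. It stood at 11.73, 11.38, 11.54 and 11.55 in knockout mice 1 to 4, against 11.32, 11.11, 10.90 and 10.98 in wild-type mice 1 to 4. The groups did not overlap, at a difference of 0.47 ± 0.11 (SE, n = 4 each; adjusted p = 0.0629), and it passed at adjusted p = 0.0473 without wild-type mouse 1. Mpst, a sulfurtransferase of cysteine breakdown, differed by -0.44 ± 0.14 and the aminotransferase gene Kyat3 by -0.25 ± 0.09, with adjusted p of 0.164 and 0.186.

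The ammonia-scavenging glutamine synthetase of pericentral hepatocytes, Glul, read 12.06, 12.03, 12.00 and 12.13 in knockout mice 1 to 4 and 12.44, 12.23, 12.19 and 12.17 in wild-type mice 1 to 4. Its groups did not overlap, at -0.20 ± 0.08 (adjusted p = 0.255), while Oat, the ornithine aminotransferase of the same cells, lay at 0.21 ± 0.08 (SE, n = 4 each; adjusted p = 0.237). Of 7 pericentral markers, which include Glul and Oat, 3 differences were positive and 4 negative. The mean of 4 periportal markers outside the catabolic list was 11.68 to 11.81 in knockout and 11.45 to 11.60 in wild-type livers. Of their differences 2 were positive and 2 negative. Aldh1b1 lay at 0.56 ± 0.12 (adjusted p = 0.0537) and Hsd17b13 at 0.31 ± 0.09, while Cyp2f2 lay at -0.01 ± 0.07 and Pck1 at -0.08 ± 0.09. The part of zonation in the differences was not tested.

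Of 10 regulators of amino acid catabolism none passed, where 1.15% of all genes did. Creb3l3, a membrane-bound liver transcription factor of the fasting response, came closest. It stood at 10.95, 10.97, 11.08 and 11.13 in knockout mice 1 to 4, against 11.42, 11.33, 11.36 and 11.40 in wild-type mice 1 to 4. The groups did not overlap, at a difference of -0.34 ± 0.07 (SE, n = 4 each; adjusted p = 0.0535), and it passed under 3 of 20 alternative settings. The glucagon receptor Gcgr differed by -0.33 ± 0.10 (adjusted p = 0.141), and the coactivator Ppargc1a by 0.52 ± 0.18 (adjusted p = 0.184), both with overlapping groups. Foxo1, a transcription factor held back by insulin, differed by 0.15 ± 0.11 (adjusted p = 0.515). The amino acid catabolism regulator Klf15 differed by -0.03 ± 0.07, the glucocorticoid receptor Nr3c1 by -0.07 ± 0.09, Hnf4a by 0.04 ± 0.08 and Atf4 by 0.08 ± 0.08. Of the C/EBP genes, Cebpa differed by 0.13 ± 0.12 and Cebpb by -0.08 ± 0.11.

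**Figure D4:**
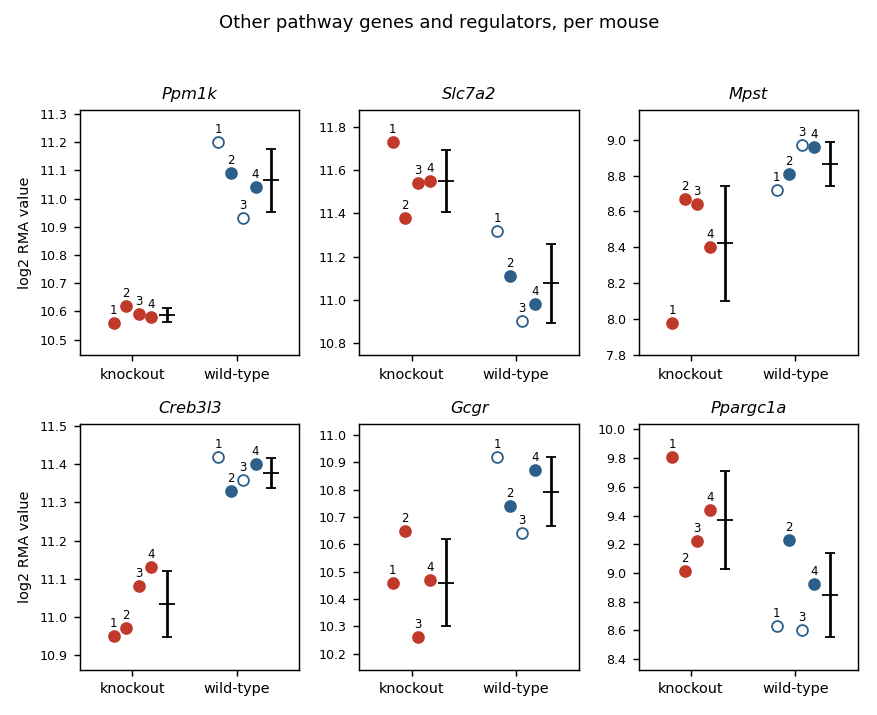
Log2 RMA value of each mouse, numbered, for 3 further pathway genes (top) and 3 regulators (bottom): red for knockout, blue for wild-type, open blue circles for wild-type mice with Cre and 1 floxed allele; black bars give the group mean and SD. The 4 knockout livers lie between 10.56 and 10.62 for Ppm1k, below all wild-type livers.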

How the data were processed

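Liver RNA of 8 mice was hybridised to Affymetrix whole-transcript arrays. The deposited values are log2 RMA values of 39137 probe sets. The authors used oligo 1.24, as the submitters' processing notes state. The log2 scale was inferred from RMA and the range of 1.28 to 13.88, and the chip definition and build are not given in the sources used here. Of the probe sets 23521 had 1 gene symbol, 1814 several and 13802 none. Groups follow the titles. Differences, knockout minus wild-type, were fitted over 22180 genes in limma 3.58.1 (R 4.3.3; group as the single term, two-sided). The Benjamini-Hochberg adjustment covered all genes, and the threshold was 0.05. A fit with 3 groups separated the control classes. Data of this size were simulated with independent normal noise at each gene's fitted spread, without array effects or correlation between genes. Shifts of 0.5, 1 and 2 log2 units were mixed in the same simulated data, and the larger ones ease the adjusted threshold for the smaller. On these simulated data limma found 73.3% of shifts of 0.5 log2 units and 99.9% of shifts of 1. False ones made up 5.48% of the genes it called. The share found may be lower on the real arrays. The genes, routes, lists and comparisons were chosen with earlier results of these data known. Values per mouse are given for genes whose groups do not overlap or that have the smallest p of their route. Cps1, Ass1, Amt and the markers were chosen for description after their values were seen. Further pathway genes and regulators are named by smallest p. The exceptions are Acad8, Hibch, Hibadh, Aldh6a1, Bckdk, Dbt, Glul, Oat and the regulators other than Creb3l3, Gcgr, Ppargc1a and Foxo1. Erythroid markers were not analysed here. The number of arrays limits precision, and nothing says the mice were from separate litters. Plots used Python version 3.11.15 and matplotlib version 3.10.9. Alternatives were variance model, normalization, centring, a filter on dim genes, probe set choice, mouse number, array weights, Y-linked level, control class and arrays left out.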

Additional observations from a re-analysis of the deposited data

Results flagged for a closer look

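In 86 groups of 4 mice, those of the 41 catabolic genes, Sco1 and Ppm1k, 1 mouse stood far from the others in 7, and chance alone flags about 1 in 20 groups. Knockout mouse 1 was the outlying mouse for 3 genes: Prodh at 10.30 against 10.70 to 10.73 in the other knockout mice, the ornithine carrier Slc25a15 at 11.29 against 11.78 to 11.87, and Bckdhb at 11.07 against 11.35 to 11.41. Fah was low in knockout mouse 4, at 12.52 against 12.66 to 12.68. Ass1 was high in wild-type mouse 4, at 8.42 against 7.11 to 7.29 in the other wild-type mice. In wild-type mouse 3, Amt was low at 9.94 against 10.14 to 10.18, and Aass was high at 12.03 against 11.94 to 11.95. Without knockout mouse 1 the difference of Slc25a15 was 0.07, against -0.06 with it, and neither passed.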

How the results depend on the processing

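Of 20 alternative settings 18 called none of the 41 genes, and Got1 was the single gene called higher in the other 2, which count 1 higher gene each: the trended and robust variance and the genes above the median level. None was called lower in any setting, and with each array left out in turn the counts were 0 higher and 0 lower throughout. The median difference ran from -0.05 (without knockout mouse 2 or 3) to 0.02 (both mice numbered 1 left out), and 0 to 7 of the 41 differences, none of them called, changed sign per setting. Deviations of mice with the same number correlated at -0.0217, 0.0308 and -0.102 for numbers 2, 3 and 4, which did not pair the groups. The mice numbered 1 correlated at 0.273, the highest of all knockout and wild-type pairs. Knockout mouse 1 correlated at -0.148 to -0.0421 with wild-type mice 2 to 4. With mouse number as a replicate block no catabolic gene passed, the lowest adjusted p being 0.0901 for Got1, and 210 genes in all were called against 255. Calls over all genes depended on the setting: 459 with the trended and robust variance, 442 among genes above the median level, 33 with all probe sets tested, 151 with the Y-linked level as a covariate, 65 without the mice numbered 1, 16 without the Cre-carrying controls, 6 without the Cre-free controls, and 91 to 175 with 1 array left out. The share of called genes that were higher was 37.6%, and it was 20.7% (60 against 230 lower) with arrays centred on their median. Ppm1k had an adjusted p of 0.0757 with all probe sets tested. Ppm1k had 0.0903 without the mice numbered 1, 0.119 without the Cre-carrying controls and 0.216 without the Cre-free controls. With fewer arrays the same difference has a larger error. The Ass1 and Amt readings limit what can be said of these genes most.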
